A study of Homo sapiens with 12 samples.

Results

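A set of 9 genes of the mitochondrial tricarboxylic acid (TCA) cycle, chosen by their place in the cycle and with earlier results of these data known, were followed in human microglia-like cells with and without LACTB. They are SUCLG1, SUCLG2, SUCLA2, OGDH, DLST, CS, IDH3A, FH and MDH2, that is 9 of the 62703 genes listed in the count table. The TCA cycle is a ring of reactions in the mitochondrial matrix that oxidizes acetyl groups to carbon dioxide and hands the electrons to the respiratory chain. Succinyl-CoA is an intermediate of the ring, made by the oxoglutarate dehydrogenase complex and used by succinyl-CoA ligase, and it also connects the ring to branched-chain amino acid breakdown, ketone body use and haem synthesis. In macrophages, TCA intermediates such as succinate, fumarate and citrate are known to take part in inflammatory responses as well as in energy supply.

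The cells were iMGLs, microglia differentiated from the induced pluripotent stem cell line WTC11 by way of hematopoietic precursors, grown with IL34, TGFb and MCSF and at the end also with CX3CL1 and CD200, without any further treatment. Bulk RNA-seq had been performed on 3 WT clones, named J, K and L, and on 3 clones with LACTB knocked out (LACTB KO), named A, B and C, all made from this line by CRISPR editing, each differentiated on 2 occasions, which gave 12 libraries. LACTB encodes a mitochondrial serine hydrolase, and the study asked how microglial metabolism and function change when it is lost. All the clones descend from a single parental line, and a genotype is represented by 3 clones, so the clone was the unit of replication between genotypes.

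Libraries held 24153233 to 28406943 estimated counts, and levels are given in CPM, the usual unit that expresses a gene's counts relative to all counts of its library, after scaling between libraries. LACTB mRNA ranged from 70.8 to 97.99 CPM in the WT libraries and from 7.51 to 51.6 CPM in the LACTB KO libraries, where clone B kept 44.2 and 51.6 CPM in its differentiations and clones A and C stayed under 10 CPM. All 15 microglia and macrophage markers were detected in every library, with a summed level of 8380 to 10600 CPM. The 11 stromal markers, which microglia should lack, summed to 22.4 to 9620 CPM in WT libraries and 18.3 to 952 CPM in LACTB KO libraries, with the highest sums in differentiation 1 of clone J (9620 CPM) and differentiation 2 of clone K (4280 CPM). Of these, DCN and PDGFRA were at 0 in 4 libraries each and LUM in 1 library. All 10 that could be tested were lower in LACTB KO clones, 9 of them at an unadjusted p under 0.05 by edgeR. Over all genes 48.3% were lower, and 5.56% were lower at such a p. The 8 granulocyte and mast cell markers summed to at most 28.2 CPM, and the 4 pluripotency markers to at most 0.745 CPM. Of the granulocyte and mast cell markers, KIT (1.7 to 28 CPM) and AZU1 (0.0369 to 1.48 CPM) were detected in every library. The others stayed at or under 0.0758 CPM, with PRTN3 at 0 in 12 libraries. In bulk RNA a change in the number of cells of a type and a change in the RNA each cell makes cannot be told apart.

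The subunits of succinyl-CoA ligase come first, because this enzyme consumes succinyl-CoA and gives succinate. SUCLG1 encodes the alpha subunit that every form of the ligase shares. SUCLG2 encodes the beta subunit of the GTP-forming enzyme and SUCLA2 that of the ATP-forming enzyme. On GRCh38, SUCLG1 (ENSG00000163541.12) lies on the minus strand of chr2:84423528-84460045, SUCLG2 (ENSG00000172340.15) on the minus strand of chr3:67360460-67654612 and SUCLA2 (ENSG00000136143.16) on the minus strand of chr13:47745736-48037968. The values are estimated counts for each whole gene, so isoforms were not separated.

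SUCLG2 was the ligase gene that differed most between genotypes. In WT clones it stood at 110.4 and 159 CPM in differentiations 1 and 2 of clone J, at 151 and 134 CPM in clone K, and at 127 and 155 CPM in clone L. In LACTB KO clones it stood at 163 and 152 CPM in clone A, at 153 and 145 CPM in clone B, and at 140.02 and 149.8 CPM in clone C. The lowest library was thus differentiation 1 of clone J, and single libraries of the genotypes overlapped. The means over both differentiations did not overlap, with 134.9, 142.3 and 141.1 CPM in clones J, K and L against 157.6, 148.7 and 144.9 CPM in clones A, B and C. An exact two-sided permutation test over clones gave p = 0.1, the smallest that 3 clones against 3 allow, and 4.06% of all genes tested had every LACTB KO clone above every WT clone. By the edgeR quasi-likelihood test on clone sums the log2 fold change was 0.11 (SE 0.063, 95% interval -0.038 to 0.263, adjusted p = 0.878), so SUCLG2 did not pass the test. Without the libraries of J and K that had the most stromal transcripts, the log2 fold change was 0 (95% interval -0.195 to 0.196).

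The clones of the genotypes overlapped for SUCLG1 and SUCLA2. For SUCLG1 the means of A and B (41.08 and 38.65 CPM) lay above every WT clone and that of C (32.19 CPM) below every WT clone, and the exact permutation test gave p = 0.7. SUCLG1 averaged 36.0 ± 3.43 CPM in WT libraries against 37.3 ± 4.30 CPM in LACTB KO libraries (SD, n = 6 libraries from 3 clones each), a log2 fold change of 0.06 (SE 0.11, 95% interval -0.211 to 0.322). SUCLA2 averaged 36.1 ± 2.92 CPM in WT libraries against 36.7 ± 2.48 CPM in LACTB KO libraries, a log2 fold change of 0.02 (SE 0.065, 95% interval -0.131 to 0.177). SUCLA2 was the steadiest ligase gene, its highest library being 1.22 times its lowest, against 1.36 for SUCLG1 and 1.48 for SUCLG2.

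To set the subunits against each other, CPM was divided by the length of each gene's canonical transcript (1270 bases for SUCLG1, 2350 for SUCLG2 and 2111 for SUCLA2). On this scale the GTP-type subunit exceeded the ATP-type subunit in all 12 libraries. The ratio of SUCLG2 to SUCLA2 was 3.03 and 3.71 in differentiations 1 and 2 of clone J, 3.48 and 3.37 in K, 3.51 and 3.64 in L, 3.68 and 3.79 in A, 3.57 and 3.66 in B, and 3.85 and 3.58 in C. Its mean was 3.46 ± 0.241 in WT and 3.69 ± 0.112 in LACTB KO libraries (SD, n = 6 libraries from 3 clones each). The lowest ratio came from the same library of clone J that was lowest in SUCLG2, and the libraries of the genotypes overlapped. The means per clone did not, with 3.37, 3.425 and 3.575 in J, K and L against 3.735, 3.615 and 3.715 in A, B and C. The library of J with the lowest ratio also had the most stromal transcripts (9620 CPM). The other library of J, at 3.71, lay above the mean of clone B, so the gap between clone means depended on that single library. No test was made of this ratio, and how often other pairs of genes separate the clones was not computed. SUCLG2 made up 77.5% ± 1.27 of the beta subunit transcripts in WT and 78.7% ± 0.509 in LACTB KO libraries. The shared alpha subunit reached 0.373 ± 0.041 of the summed beta subunits in WT and 0.36 ± 0.0287 in LACTB KO libraries. These ratios rest on the lengths used. With all annotated exons merged, which adds many bases from rare isoforms to SUCLA2, the ratio of SUCLG2 to SUCLA2 was 11 ± 0.773 in WT and 11.8 ± 0.346 in LACTB KO libraries.

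OGDH and DLST encode the enzymes that make succinyl-CoA in the cycle. OGDH is the decarboxylating component of the oxoglutarate dehydrogenase complex, and DLST is the core component that passes the succinyl group to coenzyme A. OGDH (ENSG00000105953.16) lies on the plus strand of chr7:44606572-44709066 and DLST (ENSG00000119689.15) on the plus strand of chr14:74881891-74903743. OGDH averaged 198 ± 27.1 CPM in WT libraries against 192 ± 12.7 CPM in LACTB KO libraries, a log2 fold change of -0.04 (SE 0.092, 95% interval -0.258 to 0.18). DLST averaged 101 ± 7.98 CPM in WT libraries against 101 ± 6.18 CPM in LACTB KO libraries, with a log2 fold change of -0.0007 (SE 0.072, 95% interval -0.173 to 0.171). These were the members with lower values in LACTB KO, and neither value stood apart from 0.

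CS, IDH3A, FH and MDH2 stand for the rest of the ring. CS (ENSG00000062485.19, minus strand, chr12:56271699-56300391) encodes citrate synthase, which joins acetyl-CoA to oxaloacetate. IDH3A (ENSG00000166411.14, plus strand, chr15:78131498-78171945) encodes the catalytic alpha subunit of the NAD-dependent isocitrate dehydrogenase. FH (ENSG00000091483.8, minus strand, chr1:241497511-241519799) encodes fumarase, and MDH2 (ENSG00000146701.12, plus strand, chr7:76048051-76067508) encodes the mitochondrial malate dehydrogenase, which restores oxaloacetate.

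Among all the members IDH3A had the largest fold change between genotypes. In WT clones it stood at 76.0 and 81.9 CPM in differentiations 1 and 2 of clone J, at 96.5 and 92.7 CPM in K, and at 86.1 and 108 CPM in L. In LACTB KO clones it stood at 122 and 101 CPM in A, at 111 and 96.2 CPM in B, and at 86.7 and 105 CPM in C. Clones A and B lay above every WT clone in their means (111.5 and 103.4 CPM), whereas C at 95.85 CPM lay below L at 97.19 CPM. The log2 fold change was 0.2 (SE 0.0985, 95% interval -0.034 to 0.435, adjusted p = 0.852 by edgeR), and the exact permutation test over clones gave p = 0.2. It was 0.17 without the libraries of J and K that were highest in stromal transcripts and 0.2 without clone B, the clone that kept most LACTB mRNA. Without WT clone J, the clone with the lowest mean, it was 0.11 (95% interval -0.073 to 0.294). IDH3A shares 2608 exon bases with ACSBG1 on the opposite strand, and the library kit did not keep strand. ACSBG1 itself had 43.5 to 154.9 estimated counts per library.

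The value of FH was also higher in LACTB KO, by less than that of IDH3A. FH stood at 58.8 and 66.3 CPM in J, at 73.6 and 56.6 CPM in K and at 62.9 and 66.8 CPM in L, against 81.7 and 66.8 CPM in A, 82.1 and 61.6 CPM in B, and 61.8 and 63.5 CPM in C. The 2 highest libraries were therefore differentiation 1 of A and of B. The log2 fold change was 0.12 (SE 0.078, 95% interval -0.068 to 0.303, adjusted p = 0.878 by edgeR). Single clones and libraries moved this value in both directions. It was 0.19 without clone C (unadjusted p 0.0296, adjusted p = 0.896), 0.08 without clone A, and 0.025 without the libraries of J and K that had the most stromal transcripts (95% interval -0.205 to 0.255).

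MDH2 and CS differed less. MDH2 ranged from 111.08 to 134 CPM in WT libraries and from 112 to 156 CPM in LACTB KO libraries, with the highest value in differentiation 1 of clone A, and its log2 fold change was 0.08 (SE 0.084, 95% interval -0.121 to 0.277). CS ranged from 209 to 234 CPM in WT and from 216 to 252 CPM in LACTB KO libraries, with a log2 fold change of 0.04 (SE 0.062, 95% interval -0.113 to 0.183). CS varied least of the 9 genes, its highest library being 1.2 times its lowest. A further 220 exon bases of CS are annotated to the readthrough gene ENSG00000144785 on the same strand, which had 0 to 95.3 estimated counts per library.

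**Figure D1:**
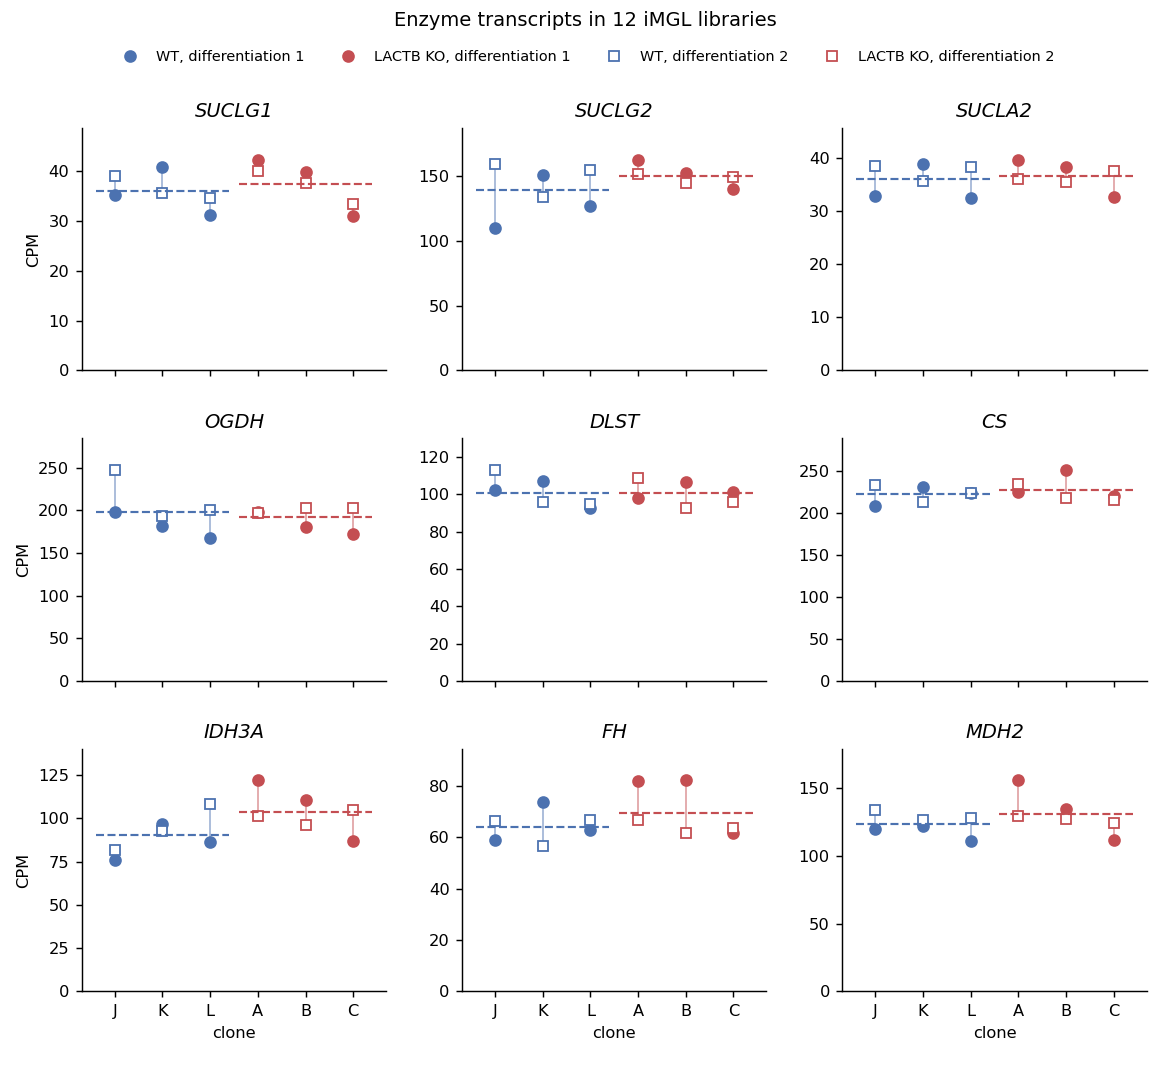
Level of each member in CPM (y axis of each panel, starting at 0) in each library, with the clones along the x axis (J, K and L are WT; A, B and C are LACTB KO) and the differentiations as separate symbols. SUCLG2 clone means run from 134.9 to 142.3 CPM in WT and from 144.9 to 157.6 CPM in LACTB KO, and the libraries of the genotypes overlap in every panel.

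Thus 7 of the 9 members had higher and 2 had lower values in LACTB KO, and none passed the test. Over all 17577 genes tested by edgeR, 0% passed an adjusted p of 0.05 and 6.36% had an unadjusted p under 0.05, against 0 of the 9 members. Some 51.7% of all genes were higher in LACTB KO. The median log2 fold change was 0.06 over the members and 0.0067 over all genes. DESeq2 on the same clone sums called 171 genes and limma voom with clone as a random effect called 0, and neither called a member. The intervals still allowed for modest change, the widest upper bound being 0.435 on the log2 scale for IDH3A and the lowest bound -0.258 for OGDH. Without the libraries of J and K that had the most stromal transcripts, 4 of the 9 members, against 51.8% of all genes, were higher in LACTB KO. That omission also left clones J and K with a single differentiation each. Without clone J as a whole 9 members were higher (50.1% of all genes), and without clone K 8 were (50.5%). The part of stromal transcripts in the members' values was not tested.

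**Figure D2:**
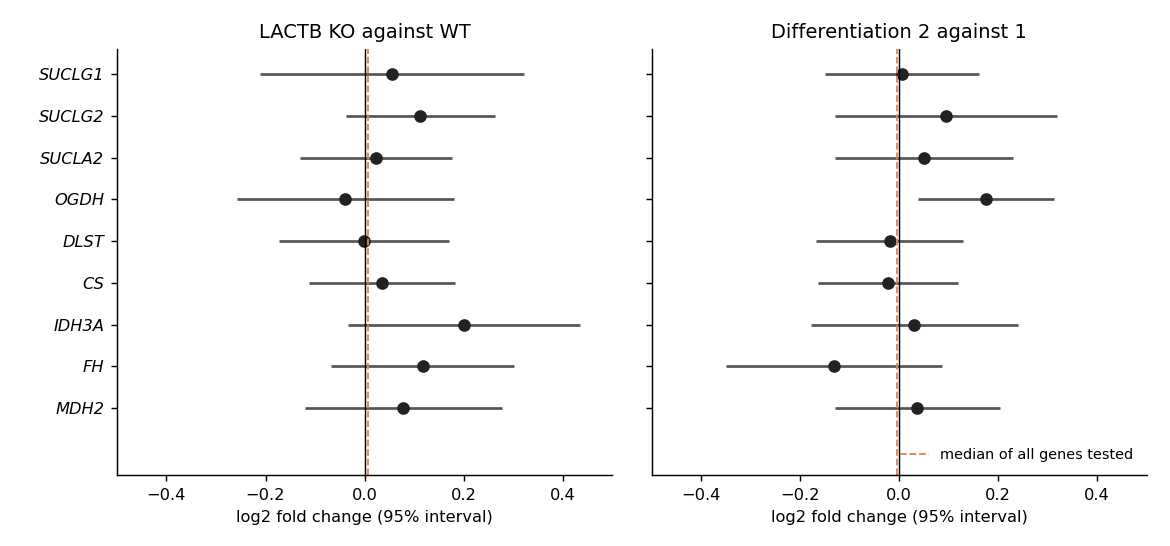
Log2 fold change of each member (x axis) between LACTB KO and WT clones (left) and between differentiation 2 and differentiation 1 (right), as points with 95% intervals from edgeR and the median of all genes tested as a dashed line. On the left every interval includes 0, and on the right the interval of OGDH alone lies above 0 (0.039 to 0.312).

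The next comparison was between differentiations, with each clone as its own control. OGDH was the member that differed most. In differentiation 1 it stood at 198, 181, 167, 198, 181 and 172 CPM in clones J, K, L, A, B and C, and in differentiation 2 at 247, 193, 200.01, 196, 202 and 203 CPM in the same order. It was higher in differentiation 2 in 5 of 6 clones, with changes of 0.32, 0.09, 0.26, 0.17 and 0.24 on the log2 scale in J, K, L, B and C, and -0.01 in A. The log2 fold change was 0.18 (SE 0.059, 95% interval 0.039 to 0.312) by edgeR with clone as a block, with an unadjusted p of 0.0178 and an adjusted p of 0.426, so OGDH did not pass the test. An exact test that flipped the sign of each clone's change gave p = 0.0625, where the smallest possible is 0.03125. The unadjusted p of edgeR rose to 0.052 without J, 0.0535 without L and 0.0515 without C, and the fold change kept between 0.14 and 0.22 under these and the other omissions of a clone.

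The remaining members had no common direction between differentiations. SUCLG1, SUCLG2, SUCLA2, DLST, CS, IDH3A and FH were each higher in differentiation 2 in 3 clones and lower in 3. MDH2 was higher in 4 and lower in 2. Of these, FH had the largest log2 fold change, -0.13 (95% interval -0.349 to 0.086, adjusted p = 0.747 by edgeR), with means of 70.2 ± 10.4 CPM in differentiation 1 and 63.6 ± 4.02 CPM in differentiation 2 (SD, n = 6 clones). In all, 6 members were higher and 3 lower in differentiation 2, with a median of 0.03 on the log2 scale against -0.004 over all 17335 genes tested. By edgeR 0% of all genes passed the adjusted threshold, 9.13% had an unadjusted p under 0.05 and 5.57% had it with a higher level in differentiation 2, against 1 of the 9 members. Some 49.1% of all genes were higher in differentiation 2. DESeq2 called 299 genes and no member.

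Within a clone the members tended to move together from differentiation 1 to differentiation 2, up in some clones and down in others. All 9 were higher in differentiation 2 of clone J, from 0.11 for IDH3A to 0.53 for SUCLG2 on the log2 scale, and all 9 were higher in clone L, from 0.001 for CS to 0.33 for IDH3A. In clone C 7 were higher. By contrast 7 were lower in clone K, 7 in clone A and 8 in clone B, where FH fell most in each (-0.38, -0.29 and -0.42). The medians over members were 0.16, 0.21 and 0.11 in J, L and C and -0.12, -0.1 and -0.11 in K, A and B. The medians over all genes in the same clones lay between -0.01 and 0.0064, with 48.8% to 50.7% of genes higher. This is a description, because each clone contributes a single pair of libraries.

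**Figure D3:**
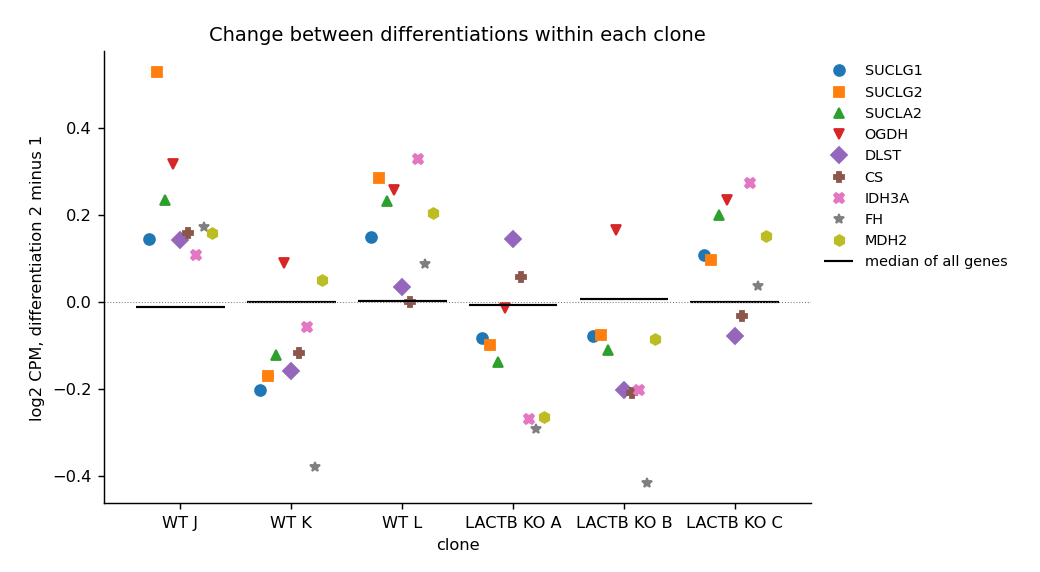
Log2 change of each member from differentiation 1 to differentiation 2 within each clone (y axis), by clone along the x axis. Black bars mark the median of all genes in each clone. The members lie above 0 in J and L, mostly above 0 in C, and mostly below 0 in K, A and B.

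Stromal transcripts differed between the paired libraries as well. Their sum fell from differentiation 1 to 2 in J (9620 to 609 CPM), in L (482 to 41.1 CPM) and in C (30.7 to 18.3 CPM), where members were mostly higher. It increased in K (22.4 to 4280 CPM) and in B (123 to 952 CPM), where members were mostly lower. Clone A went against this order, with both the stromal sum (116 to 43.3 CPM) and most members lower in differentiation 2. The part of stromal transcripts in these shifts was not tested.

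The genotype comparison was also made in each differentiation separately. In differentiation 1 all 9 members had higher values in LACTB KO, where 49.9% of all genes did. The largest log2 fold changes there were 0.3 for IDH3A (95% interval -0.054 to 0.657), 0.23 for SUCLG2 (-0.083 to 0.539), 0.21 for FH (-0.137 to 0.55) and 0.19 for MDH2 (-0.131 to 0.5). In differentiation 2 only SUCLG1, IDH3A and FH were higher, where 50.4% of all genes were, with log2 fold changes of 0.02, 0.09 and 0.009. None of these values passed the test, and the smallest unadjusted p by edgeR was 0.0858 in differentiation 1 and 0.416 in differentiation 2.

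The difference itself was tested as an interaction of genotype and differentiation in edgeR, with clones as a block. The estimate was negative for 9 of 9 members, with a median of -0.13 on the log2 scale, where 48.7% of all genes were negative. It was -0.24 for SUCLG2 (95% interval -0.686 to 0.205), -0.2 for MDH2 (-0.527 to 0.119) and -0.19 for IDH3A (-0.62 to 0.239). No member passed an unadjusted or an adjusted p of 0.05, and 0.986% and 0% of all genes did. Members share libraries, so the common sign is a property of the same 12 libraries and not of 9 independent measurements. Leaving out clone J or L or B made 2, 1 and 1 members positive. Without K the unadjusted p of SUCLG2 was 0.0201 and without C that of MDH2 was 0.0479, with adjusted p of 0.642 and 0.929.

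**Figure D4:**
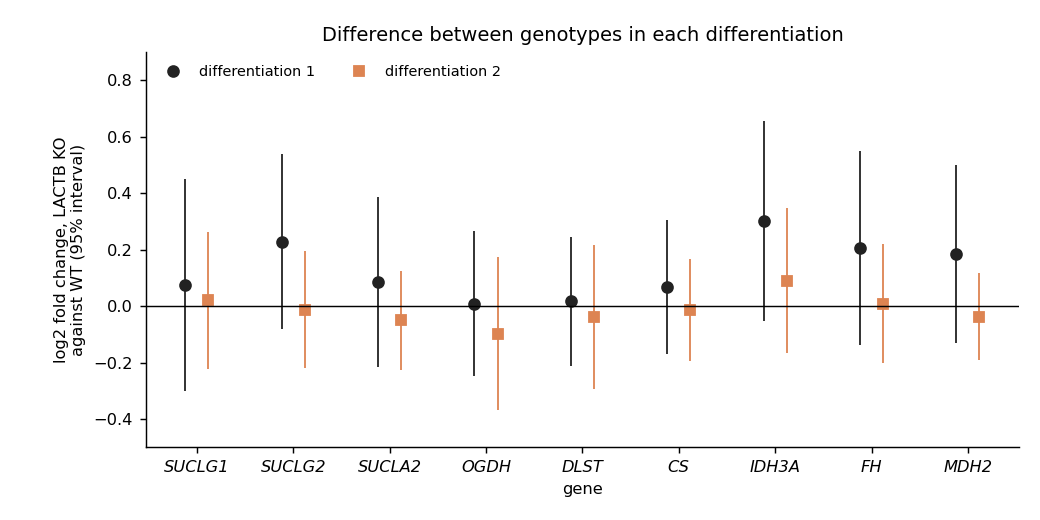
Log2 fold change of LACTB KO against WT for each member (x axis) in differentiation 1 and in differentiation 2, each from 3 clones per genotype, with 95% intervals from edgeR on the y axis. Points of differentiation 1 lie above 0 for all 9 members, from 0.008 for OGDH to 0.302 for IDH3A, and every interval includes 0.

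Clones of the same genotype were compared with each other as well. Among WT clones OGDH was highest in J, at 222.7 CPM against 187 in K and 183.6 in L, with an unadjusted p of 0.0499 and an adjusted p of 0.378 by the edgeR F test. Among LACTB KO clones SUCLG1 was highest in A, at 41.08 CPM against 38.65 in B and 32.19 in C, with an unadjusted p of 0.0433 and an adjusted p of 1. Neither passed the test, and no other member had an unadjusted p under 0.05 within either genotype. Over all genes 13.2% had such a p among WT clones and 2.11% among LACTB KO clones, and 0.0692% and 0.0346% passed the adjusted threshold.

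Across the 12 libraries most members varied together. Of the 36 pairs of members, 32 had a positive Pearson correlation of log2 CPM, with a median of 0.528. The same values over pairs of all genes were not computed, so whether the members varied together more than other genes is not known. The closest pairs were SUCLG2 with SUCLA2 (0.836), SUCLG1 with MDH2 (0.798) and SUCLA2 with MDH2 (0.783). The 4 negative pairs were DLST with IDH3A (-0.167) and OGDH with IDH3A, FH and CS (-0.081, -0.066 and -0.036). The order of the pairs changed once the mean of each differentiation was removed, with SUCLA2 and FH (0.901) and SUCLG2 and FH (0.892) then above SUCLG2 and SUCLA2 (0.824). These correlations are a description over libraries that share clones and differentiations and differ in stromal content, and no test was made. Over all genes tested, those most like SUCLG1 were SHMT2 (0.935), RPN1 (0.927) and THOC7 (0.924). Those most like SUCLG2 were CSNK1A1 (0.958), BRCC3 (0.938) and CWC27 (0.926), and those most like SUCLA2 were LLPH (0.965), BAG1 (0.964) and SRP19 (0.96).

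Levels could be ranked between genes once divided by transcript length. In CPM per kilobase of canonical transcript, CS was highest at 77.3 ± 3.94 (SD, n = 12 libraries), followed by SUCLG2 at 61.7 ± 6.36, MDH2 at 58.6 ± 5.39, OGDH at 46.5 ± 4.86, FH at 37.3 ± 4.61, DLST at 35.8 ± 2.42, SUCLG1 at 28.9 ± 2.97, IDH3A at 23.7 ± 3.24 and SUCLA2 at 17.3 ± 1.23. Most neighbours in this order were separated in every library. The exceptions were SUCLG2, above MDH2 in 9 of 12 libraries, FH, above DLST in 7 of 12, and OGDH, above FH in 11 of 12. The ranks depended on the length, since with merged exons SUCLG2 ranked 1, OGDH 2, CS 3 and MDH2 4, while SUCLA2 was last in both rankings.

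**Figure D5:**
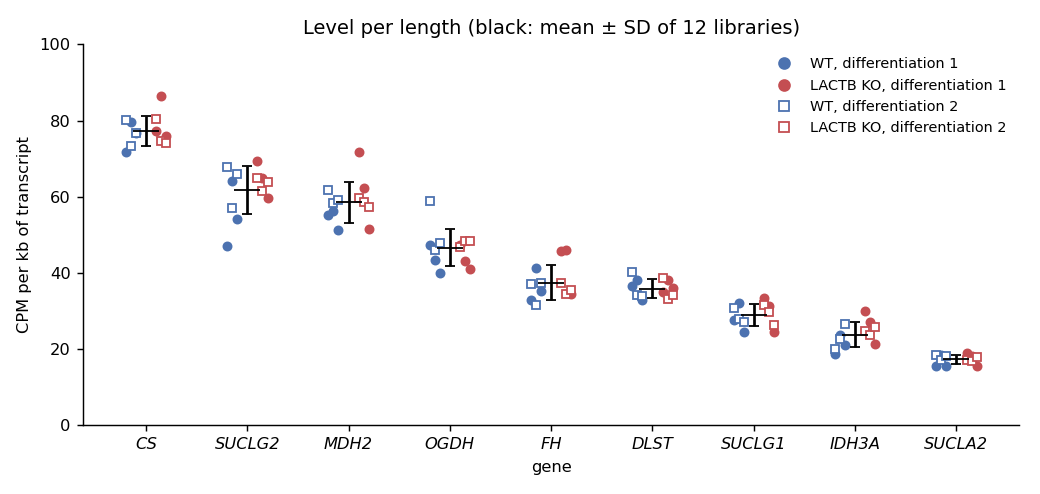
Level of each member per kilobase of its canonical transcript, in CPM per kilobase (y axis), in all 12 libraries. Members are in order of their mean along the x axis, with genotypes in separate colors and differentiations as separate symbols. CS lies at 71.8 to 86.4 and SUCLA2 at 15.4 to 18.8 CPM per kilobase.

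The promoters of the members were read to see whether genes that varied together shared a short motif of factors known to act on nuclear genes for mitochondrial proteins. RefSeq windows on GRCh38.p14, from 250 bases before to 50 bases after the gene start, were found for 8 of the 9 members and not for OGDH. On either strand, CCGGAAG, a core motif of ETS family factors, occurred in 2 of the 8 members and in 10.3% of 35116 windows. GCATGCGC, a core of NRF1, occurred in 0 of 8 and in 3.05% of windows, and TNAAGGTCA, the oestrogen-related receptor element, in 0 of 8 and in 0.951%. Distances are counted from the RefSeq start, which lies 25 bases (DLST) and 55 bases (MDH2) downstream of the GENCODE gene start given above. The DLST match thus falls just inside the gene as GENCODE draws it. For the members without a match the RefSeq start lies 0 (SUCLG2), 44 (FH), 61 (CS), 765 (SUCLG1), 17864 (IDH3A) and 36695 bases (SUCLA2) downstream. Their windows therefore do not all sit at the gene start given above. The 3 matches are shown with 11 bases on each side and the motif in capitals, because DLST and MDH2 were the members that held any of these motifs.
DLST, 22 bases upstream of the RefSeq start, chr14:74881883-74881911, plus strand, the motif on the opposite strand: ggcccgccccaCTTCCGGttgttgtccgg
MDH2, 113 bases upstream, chr7:76047982-76048010, plus strand: ctttccgactcCCGGAAGtggccgtgatc
MDH2, 69 bases upstream, chr7:76048026-76048054, plus strand: ggcgagcgcgaCCGGAAGtccggtcactc
DLST and MDH2, the members that shared a motif, had a Pearson correlation of log2 CPM of 0.216 over the 12 libraries. The windows of the closest pair, SUCLG2 and SUCLA2 (0.836), held none of the motifs. A match describes the letters in these windows, and binding was not measured.

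The other genes of the pathway were taken from 4 lists. The 14 other enzymes and subunits of the cycle had 10 higher and 4 lower values in LACTB KO and none with an unadjusted p under 0.05, with a median log2 fold change of 0.02. Over all genes 51.7% were higher and 6.36% had such a p by edgeR, with a median of 0.0067. Examples were IDH2, the mitochondrial NADP-dependent isocitrate dehydrogenase, at 237 ± 33.2 CPM in WT libraries against 259 ± 26.8 CPM in LACTB KO libraries (adjusted p = 0.878 by edgeR), and IDH3B, a partner subunit of IDH3A, with a log2 fold change of 0.12. Between differentiations 6 of the 14 were higher and 8 lower, where 49.1% of all genes were higher. The lowest values were those of IDH3G (-0.12) and SDHA, the flavoprotein of succinate dehydrogenase (-0.09), on the log2 scale.

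The 12 genes listed around succinyl-CoA outside the cycle, not all of which make or use it, had 4 higher and 8 lower values in LACTB KO. Over all genes 51.7% were higher, and 0.802% were higher at an unadjusted p under 0.05 by edgeR, against 1 of the 12. DHTKD1, which makes glutaryl-CoA in lysine breakdown and is related to OGDH, stood at 118 ± 16.6 CPM in WT libraries against 145 ± 17.3 CPM in LACTB KO libraries, a log2 fold change of 0.3 with an unadjusted p of 0.0281 and an adjusted p of 0.735 by edgeR. SUGCT, which moves CoA between succinyl and glutaryl groups, and OGDHL, a relative of OGDH, were near the limit of detection, at 0.508 and 0.373 CPM in WT and 0.196 and 0.228 CPM in LACTB KO libraries. Between differentiations MMUT, the mutase that forms succinyl-CoA from methylmalonyl-CoA, had a log2 fold change of 0.15 and an unadjusted p of 0.0334, and KAT2A, a histone acetyltransferase that can use succinyl-CoA, of -0.23 with 0.0116. Neither passed the adjusted test.

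The entry of pyruvate differed little between genotypes, with 6 of 14 genes higher, 8 lower and none at an unadjusted p under 0.05. The shares over all genes were 51.7% higher in LACTB KO and 6.36% at such a p by edgeR. Between differentiations 11 of these 14 were higher in differentiation 2, 5 of them and 1 of the 3 lower genes at an unadjusted p under 0.05. Over all genes 49.1% were higher, and by edgeR 5.57% were higher and 3.57% lower at such a p. PDK3 and PDK4, kinases that switch off pyruvate dehydrogenase, had opposite values. PDK3 stood at 28.2 ± 1.81 CPM in differentiation 1 and 35.7 ± 2.09 CPM in differentiation 2, and PDK4 at 15.5 ± 9.17 and 3.56 ± 1.09 CPM (SD, n = 6 clones). The phosphatase PDP2, which switches the complex back on, had a log2 fold change of 0.48. The adjusted p of these 3 genes was 0.238, 0.293 and 0.297 by edgeR, whereas DESeq2 gave them 0.00644, 9.3e-05 and 0.0273.

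Of the carriers and enzymes that exchange TCA intermediates with the cytosol, 10 of 17 tested were higher and 7 lower in LACTB KO. Over all genes 51.7% were higher, and by edgeR 0.802% were higher and 5.56% lower at an unadjusted p under 0.05. ME1, the cytosolic malic enzyme, stood at 20.8 ± 14.8 CPM over WT libraries, with the 2 highest values in clone J (22.9 and 48.3 CPM), and at 9.61 ± 2.01 CPM in LACTB KO libraries (unadjusted p 0.0423, adjusted p = 0.76 by edgeR), and SLC25A10, the dicarboxylate carrier, had a log2 fold change of 0.24 (0.0439 and 0.761). Between differentiations 14 of 18 were higher in differentiation 2, 5 of them at an unadjusted p under 0.05, against 49.1% and 5.57% of all genes. IDH1, the cytosolic isocitrate dehydrogenase, stood at 197 ± 41.9 CPM in differentiation 1 and 298 ± 92.9 CPM in differentiation 2. It was higher in differentiation 2 in 6 of 6 clones, as were 3.42% of all genes. ACLY, which splits citrate into acetyl-CoA and oxaloacetate, and SLC25A1, the citrate carrier, had log2 fold changes of 0.36 and 0.37. By edgeR the adjusted p of IDH1, ACLY and SLC25A1 was 0.115, 0.246 and 0.271, and by DESeq2 it was 6.16e-07, 0.000998 and 0.00435. Hence no gene of the 4 lists passed the edgeR test in either comparison, and the 6 genes that DESeq2 called all came from the comparison of differentiations. In that comparison DESeq2 called 299 of all 17335 genes tested, and between genotypes it called 171 of 17577.

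Few reads were assigned to pseudogenes of the members, which were counted as genes of their own. Summed over libraries, the counts of DLSTP1 equalled 0.554% of those of DLST, the highest such ratio, followed by SUCLG2P2 with 0.341% of those of SUCLG2 and SUCLA2P1 with 0.118% of those of SUCLA2. How reads shared by a member and its copy were divided is not given in the sources used here.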

How the data were processed

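Bulk RNA-seq of polyadenylated RNA from 12 libraries was analysed, with groups taken from the sample labels. In the count table WT columns are named with the prefix SCR, which the paper uses for scrambled controls of another experiment, and they were taken as WT because the labels say so. Per the paper's methods, the authors used STAR to place adapter-trimmed read pairs on hg38. They deposited estimated counts of each gene, not scaled to depth. The counting tool, annotation and strand setting are not given in the sources used here. Because 10.8% to 11.5% of values were fractions, the deposited estimated counts were rounded per library, although the plan had assumed whole counts. Depth was 24153233 to 28406943 counts per library. Labels give no batch other than the differentiation.

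Genotypes were compared on sums per clone (3 against 3) and differentiations on 12 libraries with clone as a block, with edgeR 4.0.16 in R 4.3.3 (TMM, filterByExpr, quasi-likelihood test, Benjamini-Hochberg adjustment over all genes tested, threshold 0.05). Interaction and clone differences used the 12-library fit. CPM means used TMM scaling, and log2 CPM a prior count of 2. The study's mixed model (DREAM) was not used here. Exact permutation tests were two-sided. Genotype p-values measure the spread between clones of 1 line. Those between differentiations, for the interaction and between clones of a genotype measure how unevenly the clones changed from differentiation 1 to 2. The clone comparisons rest on 2 libraries per clone. Alternatives were DESeq2 1.42.0, voom (limma 3.58.1), other scaling and filters, single differentiations and omitted clones or libraries. The merged exon length was chosen after seeing the data.

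Positions and exon overlaps came from GENCODE version 44, in which 62686 of 62703 identifiers were found, and promoters from RefSeq. The members and lists were chosen with earlier results of these data known. Named are all members, the 3 genes of each pathway list with the smallest p per comparison where described, and the 3 genes most correlated with each ligase subunit. Deviations from the genotype mean correlated by 0.032 on average between WT and LACTB KO libraries of equal differentiation number (18 pairs), and since the batch label names the differentiation, an alternative used it as a block.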

Additional observations from a re-analysis of the deposited data

How the results depend on the processing

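No member passed an adjusted p of 0.05 in any comparison under any alternative run, and the smallest adjusted p was 0.492 between genotypes and 0.176 between differentiations (OGDH, DESeq2). The number of genes called over the whole table did change: between genotypes 0 by edgeR, 171 by DESeq2 and 2 without the expression filter, and between differentiations 0, 299 and 80. With the differentiation as a replicate block over 12 libraries, 0 members were called and 7 were higher in LACTB KO, and the block changed no call of a member. The count of members higher in LACTB KO was 7, but 3 in differentiation 2 alone and 4 without WT libraries J1 and K2. The count higher in differentiation 2 was 6, but 3 with library totals only and 1 in LACTB KO clones alone. With merged exons as length, the mean ratio of SUCLG2 to SUCLA2 moved from 3.57 to 11.4 and that of SUCLG1 to both beta subunits from 0.367 to 0.173.

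Of 135 alternative fold changes between genotypes 20 changed sign, and of 126 between differentiations 20 did. The log2 fold change between genotypes turned in differentiation 2 alone for SUCLG2 (-0.013), SUCLA2 (-0.051), CS (-0.015) and MDH2 (-0.037), in differentiation 1 alone for OGDH (0.008) and DLST (0.017), and without J1 and K2 for SUCLG1 (-0.006), SUCLA2 (-0.038) and CS (-0.013). DLST was also 0.001 with RLE and with DESeq2, 0.008 with library totals and 0.013 without the filter. Between differentiations the sign turned with library totals for SUCLG1 (-0.031), IDH3A (-0.007) and MDH2 (-0.001), in LACTB KO clones alone for SUCLG1 (-0.009), SUCLG2 (-0.017), SUCLA2 (-0.007), IDH3A (-0.056) and MDH2 (-0.057), and in WT clones alone for CS (0.012) and DLST (0.004). Leaving out each clone in turn gave genotype fold changes of -0.014 to 0.155 for SUCLG1, -0.092 to 0.053 for OGDH and -0.052 to 0.046 for DLST, and differentiation fold changes of -0.024 to 0.062 for SUCLG1, -0.054 to 0.024 for DLST, -0.062 to 0.01 for CS and -0.023 to 0.101 for IDH3A. IDH3A (0.09 to 0.302) and FH (0.009 to 0.206) kept their sign between genotypes in every alternative, and FH (-0.215 to -0.043) and OGDH (0.138 to 0.224) between differentiations. The causes were not tested. With 3 clones per genotype, differences smaller than the intervals given could not be resolved.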
